A study of Homo sapiens with 12 samples.

Results

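The genes of MHC class I antigen presentation were followed through 12 RNA sequencing libraries of 2 human glioma cell lines, U251 and U87, cultured with or without artesunate. The members are the rows of the deposited gene table named HLA-B, HLA-C, HLA-E, HLA-F, B2M, TAP1, TAP2, TAPBP and NLRC5, which makes 9 of the 58302 genes listed. All 9 passed the filter on low counts that left 17150 genes for testing.

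MHC class I molecules carry short peptides from proteins made inside the cell to its surface, where CD8 T cells read them and natural killer cells sense their presence. A heavy chain (HLA-B and HLA-C are classical, HLA-E and HLA-F non-classical) pairs with the light chain beta-2 microglobulin, the product of B2M. Peptides cut by the proteasome are pumped into the endoplasmic reticulum by TAP1 and TAP2, which work as a heterodimer, and tapasin, the product of TAPBP, bridges this pump to the waiting heavy chain. NLRC5 is the transactivator of the class I genes, as CIITA is for class II, and interferon raises most of the genes named here through the JAK-STAT pathway. Loss of these transcripts is a known way for tumours to evade T cells.

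U251 and U87 are established lines from human glioblastoma, and each stands for 1 tumour-derived line in culture. Artesunate is a derivative of the antimalarial artemisinin. The 4 groups were U251 in control medium, U251 with 180 µM artesunate, U87 in control medium and U87 with 24.08 µM artesunate, with 3 libraries of polyadenylated RNA in each. Every sample is labelled day 9, and exposure lasted 24 h. The control is labelled by its medium alone, and the extraction text speaks of artemisinin where the sample labels say artesunate. Because each line had its own dose, a difference between lines cannot be told apart from one between doses. The labels do not say that replicates came from separate cultures, so the p-values measure the spread between these libraries, which may be technical. In bulk RNA, fewer cells expressing a gene and less RNA of it per cell cannot be told apart.

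The 12 libraries held between 13631985 and 17314284 counts each, and libraries of a group correlated at 0.985 to 0.987 across genes, except in U87 artesunate, where the range was 0.972 to 0.981. U87 artesunate replicate 2 stood apart among the members: it was the highest of its 3 libraries for 7 of the 9 (40.4% of all tested genes had their highest value of the group there). U87 control replicate 1 was the lowest of its group for 7 of the 9 (37.7% of all tested genes). Levels of 1 gene are given as CPM, its counts scaled to a common library total. The label's cell type was set beside 15 astrocyte and glioma markers, which summed to 5696 to 7661 CPM over all libraries, with 1 of them at 0 throughout. At 0 in every library of the group were 1 in U251 controls, 2 in U251 artesunate, 3 in U87 controls and 4 in U87 artesunate. The 18 leukocyte markers summed to 2.60 to 6.96 CPM in U251, 77.0 to 121 CPM in U87 controls and 30.9 to 59.1 CPM in U87 artesunate (5 of them at 0 in all 12 libraries). Over the U251 controls, U251 artesunate, U87 controls and U87 artesunate in turn, 8 endothelial markers summed to 95.9 to 101, 59.2 to 66.5, 43.7 to 49.3 and 23.0 to 31.4 CPM. In the same order 9 neuronal markers summed to 232 to 507, 301 to 408, 93.3 to 114 and 82.4 to 107 CPM, and 7 epithelial markers to 23.4 to 37.5, 19.9 to 26.1, 6.24 to 7.17 and 2.30 to 5.36 CPM. The leukocyte sums were lower beside the falls of NLRC5 and the class II genes in U87 artesunate, and their part in those results was not tested.

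Of the 9 members, 7 lie on chromosome 6 in or beside the MHC region, B2M lies on chromosome 15 and NLRC5 on chromosome 16. Class I promoters are known for a shared upstream module in which an NF-kB site, an interferon-response element and the SXY module with its cAMP-response core and Y box follow each other. The RefSeq promoter table for GRCh38.p14 held entries for 7 of the 9 members and none for HLA-E and NLRC5. The 250 bases before the start site of 4 members are shown because these genes went different ways in U87 (HLA-B higher, TAP2 lower, HLA-C and B2M not called). Capitals mark matches on either strand to the NF-kB consensus, to GAANNGAAA (an interferon-response element core), to TGACG (the cAMP-response core) and to CCAAT (the Y box core); adjoining matches run together. HLA-B is chr6:31357180-31357429 on the minus strand, HLA-C chr6:31272093-31272342 on the minus strand, B2M chr15:44711267-44711516 on the plus strand and TAP2 chr6:32838740-32838989 on the minus strand.
HLA-B: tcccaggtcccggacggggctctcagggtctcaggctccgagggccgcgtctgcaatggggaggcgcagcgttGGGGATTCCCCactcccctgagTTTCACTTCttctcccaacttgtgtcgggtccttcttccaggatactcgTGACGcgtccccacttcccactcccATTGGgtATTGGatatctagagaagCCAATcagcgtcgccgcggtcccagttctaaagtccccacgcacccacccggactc
HLA-C: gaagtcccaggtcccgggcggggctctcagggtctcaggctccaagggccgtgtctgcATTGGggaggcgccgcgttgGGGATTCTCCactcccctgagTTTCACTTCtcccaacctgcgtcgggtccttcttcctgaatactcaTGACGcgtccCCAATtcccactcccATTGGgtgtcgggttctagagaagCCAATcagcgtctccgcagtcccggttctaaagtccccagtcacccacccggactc
B2M: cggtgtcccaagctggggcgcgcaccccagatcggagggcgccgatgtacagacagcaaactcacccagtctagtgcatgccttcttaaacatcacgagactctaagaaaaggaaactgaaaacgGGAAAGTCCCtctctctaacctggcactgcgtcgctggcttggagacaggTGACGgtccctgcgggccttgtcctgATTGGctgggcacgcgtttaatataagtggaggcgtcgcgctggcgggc
TAP2: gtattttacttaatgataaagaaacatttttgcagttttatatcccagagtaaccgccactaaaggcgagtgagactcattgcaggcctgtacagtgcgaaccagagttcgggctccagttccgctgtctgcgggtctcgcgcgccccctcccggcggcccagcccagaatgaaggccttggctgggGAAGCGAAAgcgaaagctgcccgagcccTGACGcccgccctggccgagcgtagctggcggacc

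The HLA-B and HLA-C windows were 89.0% identical (226 of 254 aligned columns), and both held the NF-kB, GAANNGAAA and TGACG matches and a CCAAT near the start in the same order. In HLA-B the NF-kB match ended 167 bases before the start site, and the GAANNGAAA match lay at 155 to 147 bases on the opposite strand. TGACG followed at 106 to 102. CCAAT matched at 81 to 77 and 74 to 70 on the opposite strand and at 56 to 52. Which of these CCAAT matches is the Y box was not tested. Of the patterns searched, the HLA-F window, 80.4% identical to that of HLA-B, held CCAAT matches only. Over the 7 members with an entry, the NF-kB consensus matched in 5, GAANNGAAA in 3, TGACG in 4 and CCAAT in 5. Among all 35116 promoters of the table, windows of the same length held these motifs in 10.0%, 6.6%, 21.2% and 32%. TAP2 held GAANNGAAA and TGACG, and the first of 2 listed TAP1 windows held an NF-kB and a CCAAT match. Among the patterns searched TAPBP held an NF-kB match alone. These are letter matches in the reference, and binding was not measured. A window without a GAANNGAAA match, such as that of B2M, TAP1 or TAPBP, may still hold an interferon-response element of another spacing.

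Levels of different genes were compared per length, on the deposited FPKM (counts scaled by library total and gene length). In U87 controls B2M and HLA-B stood highest, with 43.7 ± 11.01 and 43.6 ± 2.81 FPKM (mean ± SD, n = 3 libraries, as for all such values). HLA-E followed with 29.7 ± 1.90, HLA-C with 16.5 ± 3.95 and TAPBP with 13.2 ± 0.853 FPKM, the last pair overlapping in single libraries. The transporter subunits TAP1 and TAP2 reached 6.80 ± 0.291 and 5.76 ± 0.293 FPKM, NLRC5 2.07 ± 0.183 and HLA-F 0.744 ± 0.0793. In U251 controls HLA-E led with 31.2 ± 2.31 FPKM, B2M had 23.4 ± 12.4, TAPBP 18.6 ± 2.52 and HLA-C 7.07 ± 2.15. HLA-B, among the highest members in U87, had 3.06 ± 0.229 FPKM in U251 and ranked below TAP1 (4.21 ± 0.389) and TAP2 (3.93 ± 0.354).

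This order depends on the length used. In each member the deposited FPKM was CPM divided by 1 fixed length, and in 7 of the 9 that length equalled the summed lengths of all distinct annotated exons, in which overlapping exons are counted more than once. The lengths were 1.52 times (HLA-E) to 5.31 times (B2M) that of the longest transcript. Per kilobase of the longest transcript B2M led in both control groups, with 232 CPM in U87 and 124 CPM in U251, HLA-B had 173 CPM in U87 and 12.1 in U251, and HLA-E had 45.2 and 47.5 CPM. HLA-F and NLRC5 were the lowest members on either scale, and differences of 1 gene between libraries are not touched by the length.

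**Figure D1:**
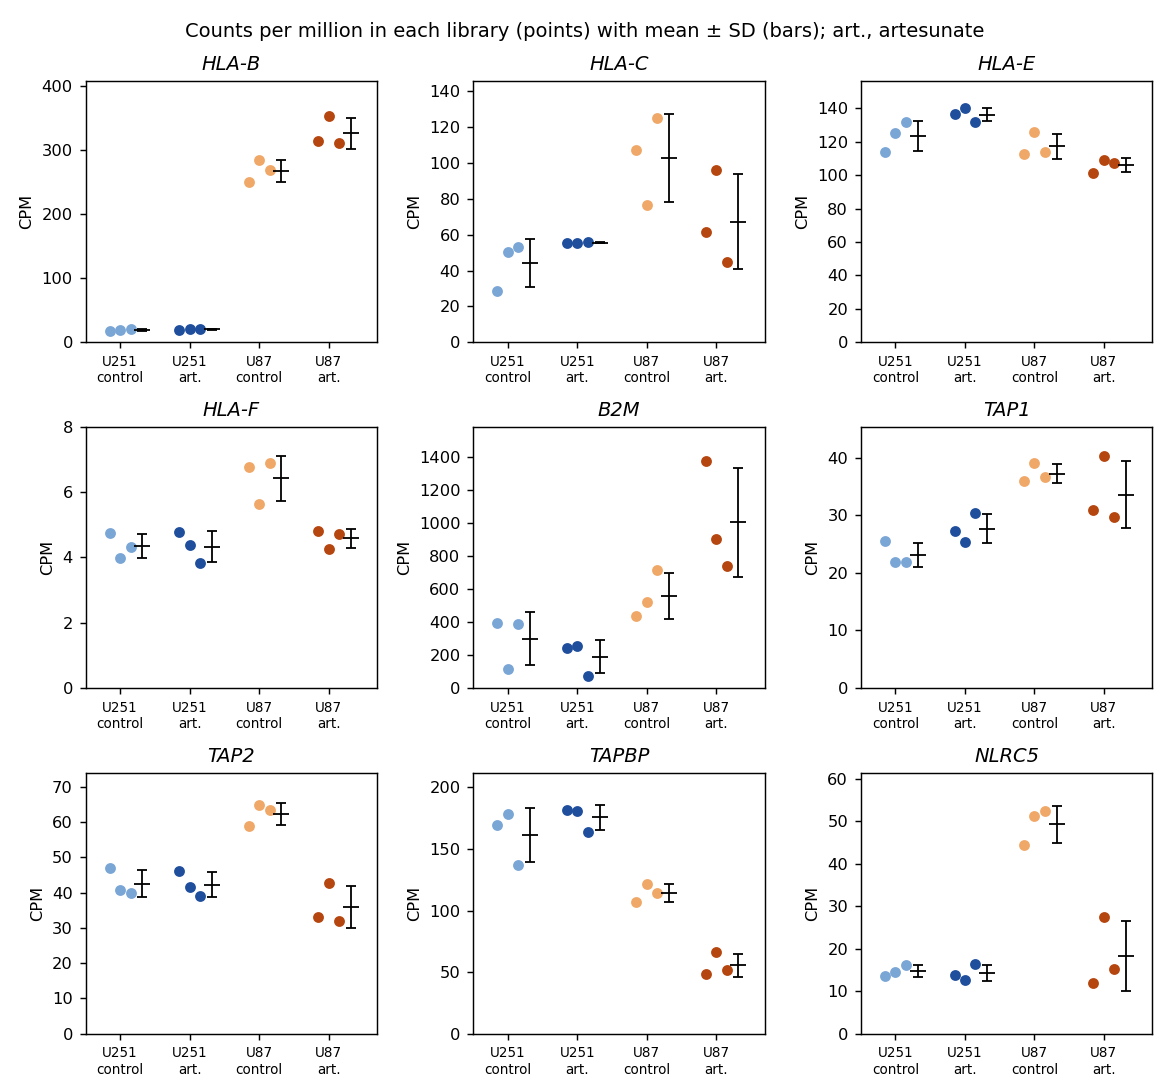
CPM (vertical axis, from 0) of each of the 9 members in every library, by group on the horizontal axis; points are single libraries and bars the mean ± SD of 3. HLA-B separates the lines by more than 10 times, NLRC5, TAP2 and TAPBP drop in the U87 artesunate libraries, and B2M and HLA-C scatter widely within groups.

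Gene coordinates below are those of the deposited table on GRCh38, and all 9 members are protein coding. The first question was whether artesunate changed the class I genes in U251. None of the 9 members was called (edgeR quasi-likelihood test, Benjamini-Hochberg adjusted p under 0.05 over all tested genes), where 8.34% of all tested genes were called, 4.09% higher and 4.26% lower. The members' median log2 fold change was 0.12 beside 0.0 for all tested genes. DESeq2 and the other 22 settings tried also called 0 of 9, and 1 member, TAP1, had an unadjusted p under 0.05. In 2 members every artesunate library lay above every control, HLA-C and HLA-E, and in none below. Of all tested genes 37.6% did not overlap there, 16.7% above and 21.0% below.

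In U87 the members moved in both directions: HLA-B rose and HLA-F, TAP2, TAPBP and NLRC5 fell, so that 5 of 9 were called. Of all tested genes 58.3% were called there, 29.2% higher and 29.2% lower, and the members' share was close to that background. Their median log2 fold change was -0.41 beside 0.0 for all tested genes. In 2 members, HLA-B and B2M, all artesunate libraries lay above the controls and in 5 below (62.5% of all tested genes did not overlap, 29.0% above and 33.5% below). The artesunate effect itself differed between the lines in TAP2, TAPBP and NLRC5 (3 of 9, all higher in U251 minus U87), where 49.4% of all tested genes were called, 24.1% higher and 25.3% lower. Between the control groups 7 of 9 members differed (64.8% of all tested genes, 32.5% higher and 32.3% lower), TAPBP higher in U251 and HLA-B, HLA-C, HLA-F, TAP1, TAP2 and NLRC5 lower. The control groups did not overlap in 8 members, 1 above and 7 below (73.5% of all tested genes, 35.6% above and 37.9% below). Under artesunate 5 of 9 differed between the lines, HLA-E and TAPBP higher in U251 and HLA-B, B2M and TAP1 lower (72.2% of all tested genes, 36.3% higher and 35.9% lower), and 4 did not overlap, 2 above and 2 below (73.7%, 37.5% above and 36.2% below).

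Of the 9 members HLA-B, a classical heavy chain (ENSG00000234745, chr6:31269491-31357188), showed the widest gap between the control groups. The U251 controls had 17.6, 18.4 and 20.3 CPM and the U251 artesunate libraries 18.8, 20.3 and 20.6. The U87 controls had 249.7, 284 and 268 CPM and the U87 artesunate libraries 313, 353 and 311. All U87 libraries lay above all U251 libraries, and in U87 every artesunate library lay above every control, while the U251 groups overlapped. HLA-B was lower in U251 controls than in U87 controls by a log2 difference of -3.81 ± 0.09 (± standard error; adjusted p = 3.33e-11). It rose with artesunate in U87 by 0.36 ± 0.08 (adjusted p = 0.00255) and in U251 had 0.12 ± 0.09 (adjusted p = 0.445), and the difference of these effects, -0.24 ± 0.12, did not pass (adjusted p = 0.118). With offsets for GC content and length, described further on, that difference was -1.29 (adjusted p = 3.48e-05).

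HLA-C (ENSG00000204525, chr6:31268749-31272130), the ligand of several killer-cell receptors, scattered more. It had 28.7, 50.6 and 52.9 CPM in U251 controls, 55.4, 55.3 and 56.2 in U251 artesunate, 107, 76.6 and 125 in U87 controls and 61.3, 96.2 and 44.6 in U87 artesunate. The U251 artesunate libraries were nearly equal, U251 control replicate 1 lay far below its group, and the U87 groups overlapped through artesunate replicate 2. The log2 fold change was 0.37 ± 0.28 in U251 (adjusted p = 0.461) and -0.55 ± 0.27 in U87 (adjusted p = 0.109). Without U87 artesunate replicate 2 the U87 value was -0.87 (adjusted p = 0.0139), a call that rests on leaving out that library. Between controls HLA-C was lower in U251 by -1.20 ± 0.28 (adjusted p = 0.00248).

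Class I heavy chain genes are near-identical in stretches and the alleles of a cell line may differ from the reference, so the values of HLA-B and HLA-C are uncertain to the extent that reads were assigned between such genes. The annotated span of HLA-B also covers that of HLA-C through 1 transcript, HLA-B-258, although only 35 exon bases (1.15% of those of HLA-B) are shared. The rise of HLA-B in U87 was called in each of the 23 alternatives.

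HLA-E (ENSG00000204592, chr6:30489467-30494205), which presents signal peptides of other heavy chains to the inhibitory receptor NKG2A, was not called between the control groups without offsets. It had 114, 125 and 132 CPM in U251 controls, 136, 140.2 and 132 in U251 artesunate, 113, 126 and 114 in U87 controls and 101.5, 109 and 107 in U87 artesunate. U251 artesunate libraries lay above the controls by a small margin and U87 artesunate libraries below theirs. The log2 fold changes were 0.18 ± 0.08 in U251 (adjusted p = 0.214) and -0.08 ± 0.08 in U87 (adjusted p = 0.448). The control groups differed by 0.10 ± 0.08 (adjusted p = 0.318), but under artesunate U251 was higher than U87 by 0.35 ± 0.08 (adjusted p = 0.00216). With offsets for GC content and length the control groups differed by 0.53 (adjusted p = 9.16e-05) and the artesunate groups by 0.15 (adjusted p = 0.0997).

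HLA-F (ENSG00000204642, chr6:29722775-29738528), a non-classical chain that can reach the surface as an open conformer, was the least abundant heavy chain. It had 4.73, 3.99 and 4.31 CPM in U251 controls, 4.78, 4.37 and 3.83 in U251 artesunate, 6.76, 5.64 and 6.88 in U87 controls and 4.81, 4.26 and 4.71 in U87 artesunate. The U87 controls stood above the 3 other groups, which lay in 1 range. HLA-F fell in U87 by -0.41 ± 0.16 (adjusted p = 0.0439), a call at the threshold that held in 10 of 23 alternatives and was lost, for example, with DESeq2 (adjusted p = 0.0506). Between controls HLA-F was lower in U251 by -0.54 ± 0.16 (adjusted p = 0.0104), and with GC and length offsets that value was 0.01 (adjusted p = 0.975). Its exons share 12.3% of their bases with the antisense gene HLA-F-AS1, and the strandedness of the counting is not stated.

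B2M (ENSG00000166710, chr15:44711477-44718877) encodes the light chain without which classical heavy chains do not reach the surface. It had 390.5, 116 and 389.8 CPM in U251 controls, 242, 254 and 72.2 in U251 artesunate, 438, 522 and 712 in U87 controls and 1373, 899.5 and 738 in U87 artesunate. In U87 every artesunate library lay above every control, yet the log2 fold change of 0.93 ± 0.50 did not pass (adjusted p = 0.134), and it passed only in the fit of the 6 U87 libraries alone (adjusted p = 0.0239) among the alternatives. In U251 the value was -0.62 ± 0.50 (adjusted p = 0.506), with 1 low library in each group, and the difference of the effects was -1.54 ± 0.71 (adjusted p = 0.0924). Under artesunate B2M was lower in U251 than in U87 by -2.42 ± 0.52 (adjusted p = 0.00133).

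Most transcripts of high abundance scattered less in U251 than B2M. Its highest library was 3.36 times its lowest in U251 controls and 3.52 times in U251 artesunate, while the median ratio of the 3881 genes with a mean of at least 1000 counts was 1.097 and 1.119. As large a ratio occurred in 1.0% and 0.93% of these genes. In U87 the ratio of B2M was 1.63 in controls and 1.86 with artesunate, which 5.08% and 10.05% of these genes reached. HLA-C in U251 controls, with a ratio of 1.85, was matched by 3.89% of them. The low libraries differed: U251 control replicate 2 and U251 artesunate replicate 3 for B2M, U251 control replicate 1 for HLA-C. The standard error of B2M, 0.50 against 0.08 to 0.28 for the other members in U251, carries this scatter.

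TAP1 (ENSG00000168394, chr6:32845209-32853978) and TAP2 (ENSG00000204267, chr6:32821833-32838780) form the peptide pump, and without offsets only TAP2 was called with artesunate in U87. TAP1 had 25.5, 21.8 and 21.8 CPM in U251 controls, 27.3, 25.3 and 30.4 in U251 artesunate, 36.0, 39.0 and 36.7 in U87 controls and 30.9, 40.3 and 29.6 in U87 artesunate. Its groups overlapped within each line, and its log2 fold changes of 0.30 ± 0.12 in U251 (adjusted p = 0.168) and -0.08 ± 0.12 in U87 (adjusted p = 0.600) did not pass. TAP2 had 46.9, 40.7 and 39.9 CPM in U251 controls, 46.1, 41.6 and 39.0 in U251 artesunate, 58.7, 64.8 and 63.4 in U87 controls and 33.0, 42.7 and 31.9 in U87 artesunate.

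Every U87 artesunate library of TAP2 lay below every U87 control, and the U251 groups covered the same range. TAP2 fell in U87 by -0.73 ± 0.12 (adjusted p = 0.000237), had 0.03 ± 0.12 in U251 (adjusted p = 0.938), and the effects differed by 0.75 ± 0.17 (adjusted p = 0.00269). This fall was called under all 23 alternatives, with log2 fold changes from -0.86 to -0.65. The FPKM ratio of TAP1 to TAP2 was 1.14 to 1.21 over the U87 controls and 1.83 to 1.86 over the U87 artesunate libraries. In U251 it was 1.06 to 1.08 and 1.17 to 1.54, so the ratio was higher with artesunate in both lines, without overlap. The highest U251 artesunate value, 1.538, was that of replicate 3, beside 1.167 and 1.199 in the others. The ratio was not tested, and how often ratios of other gene pairs separate in this way was not measured. Both genes were lower in U251 than in U87 controls, TAP1 by -0.67 ± 0.12 (adjusted p = 0.000467) and TAP2 by -0.53 ± 0.12 (adjusted p = 0.00182). With GC and length offsets the gap of TAP1 between controls was -0.23 and not called (adjusted p = 0.0507). Under artesunate the gap of TAP1, -0.29 ± 0.12 (adjusted p = 0.0482), was called in 7 of 23 alternatives. Of the exon bases of TAP2, 32.3% belong also to the annotated gene AL669918.1 on the same strand, and 9.49% of those of TAP1 to the antisense PSMB8-AS1, so reads there could be assigned either way.

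TAPBP (ENSG00000231925, chr6:33299694-33314387) was the 1 member called higher in U251 than in U87 controls without offsets. It had 169, 178.5 and 137 CPM in U251 controls, 182, 181 and 164 in U251 artesunate, 107, 122 and 114 in U87 controls and 48.4, 66.5 and 51.3 in U87 artesunate. The 3 levels did not overlap: U251 with or without the drug, then U87 controls, then U87 artesunate. TAPBP fell in U87 by -0.98 ± 0.13 (adjusted p = 4.57e-05) and had 0.16 ± 0.12 in U251 (adjusted p = 0.498), a difference of effects of 1.13 ± 0.18 (adjusted p = 0.000299). U251 controls were higher than U87 controls by 0.52 ± 0.13 (adjusted p = 0.00302), and under artesunate the gap was 1.66 ± 0.13 (adjusted p = 3.12e-07).

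NLRC5 (ENSG00000140853, chr16:56989485-57083531), the transactivator, had the largest fall of the members without offsets. It had 13.5, 14.5 and 16.2 CPM in U251 controls, 13.8, 12.8 and 16.3 in U251 artesunate, 44.4, 51.2 and 52.5 in U87 controls and 12.1, 27.6 and 15.1 in U87 artesunate. In U87 all artesunate libraries lay below all controls, 2 of them at the level of U251 and replicate 2 above it. The fall was -1.37 ± 0.23 (adjusted p = 0.000322), U251 had -0.01 ± 0.23 (adjusted p = 1), and the effects differed by 1.36 ± 0.33 (adjusted p = 0.00463). The lines' controls differed by -1.72 ± 0.23 (adjusted p = 4.56e-05), and under artesunate the gap of -0.36 ± 0.23 did not pass (adjusted p = 0.189). This gap was called with GC and length offsets (-1.04, adjusted p = 0.000187) and without U87 artesunate replicate 1 (-0.57, adjusted p = 0.0294). In the same U87 libraries HLA-B was higher and NLRC5 lower than in the controls, and U87 artesunate replicate 2 had the highest value of its group for both.

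**Figure D2:**
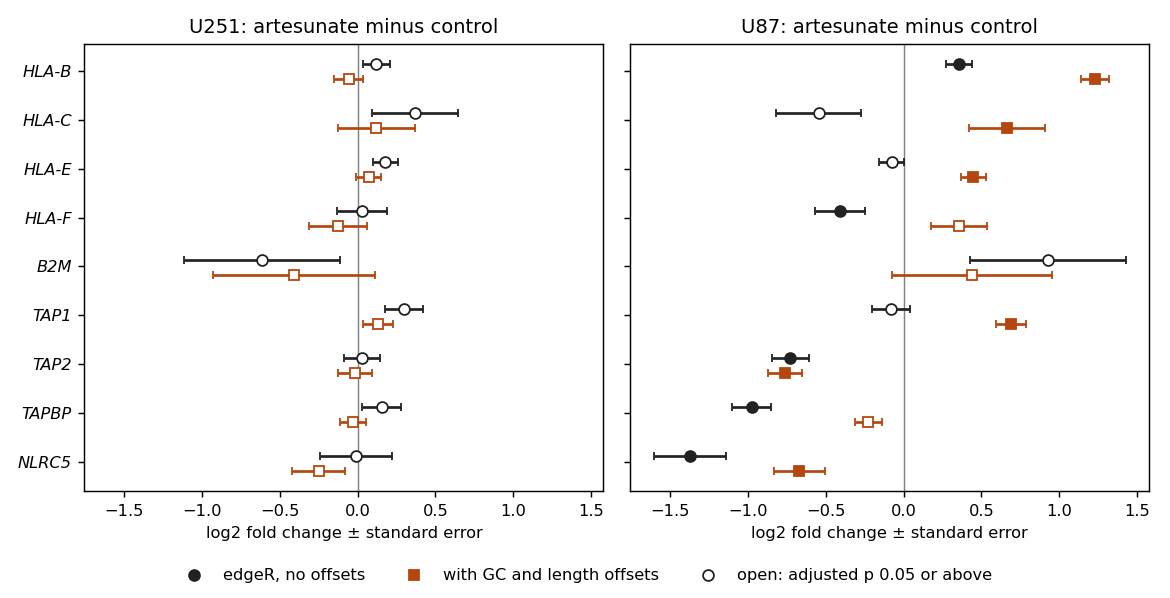
Log2 fold change with artesunate (horizontal axis, ± standard error) of each member in U251 (left) and U87 (right), from edgeR without offsets (circles) and with offsets for GC content and transcript length (squares); open symbols have an adjusted p of 0.05 or above. No member is called in U251, and in U87 the offsets move all members but TAP2 and B2M upward.

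The changes in U87 moved with the GC content of transcripts over the whole table. The median log2 fold change there was 0.70 in the quintile of tested genes lowest in GC and -1.16 in the highest quintile (57.5% GC and above), and in U251 it ran the other way, from -0.19 to 0.25. Of the members, 6 were in the highest quintile (HLA-C with 62.7% GC, HLA-B 59.0%, NLRC5 58.0%, HLA-F 57.7%, TAPBP 57.6% and TAP1 57.5%), HLA-E had 54.8%, TAP2 49.1% and B2M 40.6%. Among U87 fold changes of that highest quintile HLA-B lay above 95.6% of genes, TAP1 above 89.0%, HLA-F above 81.9%, HLA-C above 77.0%, TAPBP above 58.2% and NLRC5 above 39.6%. TAP2 lay above only 14.6% of the genes in its own quintile, whose median was 0.11. B2M lay above 65.6% of the genes in the lowest quintile.

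With per-library offsets for GC content and length, 6 members were called in U87, 4 higher and 2 lower. The share of all tested genes called in U87 with offsets is not given here, so counts with offsets there are not set against a background. Without offsets that share was 58.3%. HLA-B had 1.23 (adjusted p = 8.76e-07), TAP1 0.69 (adjusted p = 0.000123), HLA-C 0.66 (adjusted p = 0.0449) and HLA-E 0.45 (adjusted p = 0.000693), the last 3 with a sign opposite to that without offsets. TAP2 with -0.76 and NLRC5 with -0.67 (adjusted p = 0.00599) were lower with and without offsets, and TAPBP with -0.23 was no longer called (adjusted p = 0.0504). With offsets the difference of the effects between the lines was called for 4 members, where 5155 of all 17150 tested genes were called. The 4 were TAP2 with 0.74 (adjusted p = 0.00364), HLA-B with -1.29 (adjusted p = 3.48e-05), TAP1 with -0.56 (adjusted p = 0.00896) and HLA-E with -0.38 (adjusted p = 0.024). The difference was not called for TAPBP (0.20, adjusted p = 0.257) or NLRC5 (0.42, adjusted p = 0.214). The members' median in U87 went from -0.41 to 0.44. Apart from these values the part of GC content in the results was not tested. HLA-B was higher and TAP2 and NLRC5 lower in U87 artesunate under both settings.

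**Figure D3:**
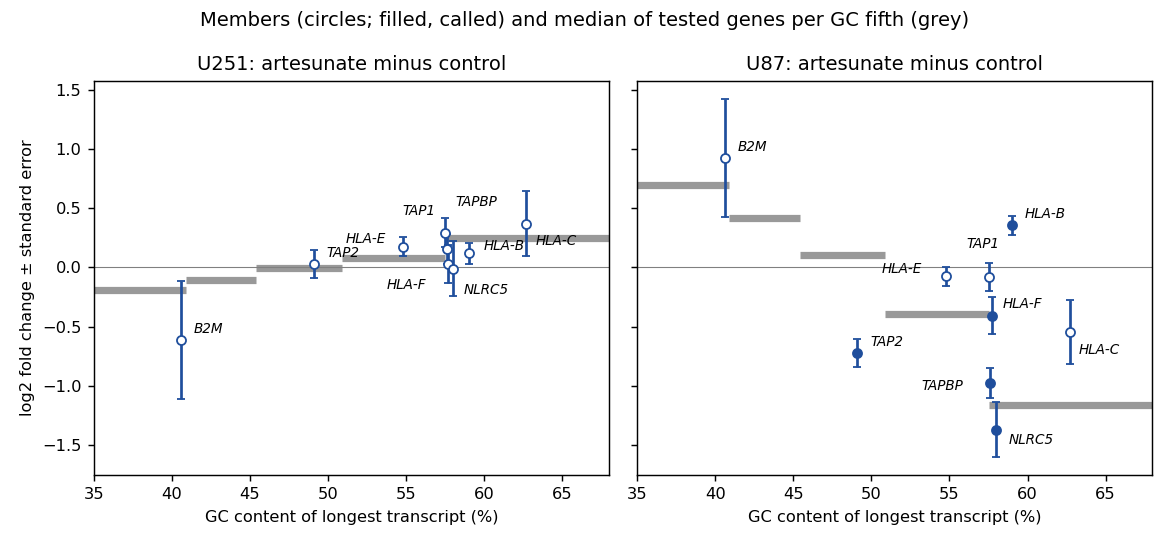
Log2 fold change with artesunate (vertical axis, ± standard error) of the 9 members (circles, filled where called) against the GC content of the longest transcript (horizontal axis, percent), with the median of all tested genes in each GC quintile as grey bars. In U87 the bars fall from 0.70 to -1.16, HLA-B lies far above its quintile and TAP2 below its own.

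Other genes of the pathway were read from fixed lists. In U251, 1 of 15 tested other class I and related molecules rose, MICA, a stress-induced ligand of the activating receptor NKG2D (0.37 ± 0.09, adjusted p = 0.0315), and none fell. Of 15 peptide-loading and folding genes none was called in either direction, and of 11 proteasome genes only PSME3 fell (-1.27 ± 0.33, adjusted p = 0.0357, called in 13 of 23 alternatives). TPP2 fell among 13 peptidases, EP300 rose among 27 transcription factors of class I promoters, and of 15 genes of interferon and JAK-STAT signalling 1 fell, STAT2 (-0.46 ± 0.12, adjusted p = 0.0446, called in 9 of 23 alternatives). None of 16 genes that remove class I or of 9 ligands read beside it was called. None of 10 class II genes was called either, but the test could show little there. CD74 had no counts in U251, and HLA-DPA1, HLA-DPB1, HLA-DQA1, HLA-DQB1, HLA-DRB1 and HLA-DRB5 also had a log2 fold change of 0.0. The calls of MICA, TPP2 and EP300 were lost with the GC and length offsets.

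In U87 the lists were called in both directions, read against 58.3% of all tested genes. Of the 15 other class I molecules 3 rose and 3 fell, led by ULBP1, another NKG2D ligand, which went from 5.52 to 7.91 CPM in controls to 41.7 to 50.2 CPM with artesunate (2.89 ± 0.21, adjusted p = 2.39e-06). Of the 15 loading and folding genes 6 rose and 5 fell: the chaperone calnexin (CANX) rose by 0.79 ± 0.07 and the disulfide isomerase PDIA4 fell by -1.13 ± 0.07. Of the 13 peptidases 8 rose and 4 fell, with IDE at 1.18 and THOP1 at -1.68. Of the 16 genes that remove class I from the surface or the endoplasmic reticulum 7 rose and 4 fell, with SEL1L, part of the degradation machinery of the endoplasmic reticulum, at 1.44 and the endocytic EHD1 at -2.25. Of 9 ligands 2 rose and 2 fell, among them CD47 (0.60, not called with the offsets) and NECTIN2 (-1.42). The median log2 fold changes of these lists were -0.17, 0.13, 0.57, 0.24 and 0.13. With the GC and length offsets 5 of the peptidases were called higher and 3 lower, with a median of 0.03, IDE had 0.54 and THOP1 -0.40. In the other class I molecules 2 were then higher and 1 lower (median 0.19), in loading and folding 5 and 4 (median -0.08), in removal 8 and 1 (median 0.35) and in the ligands 2 and 1 (median -0.008). SEL1L had 0.82, EHD1 -1.19, PDIA4 -0.78, CANX 0.31 and NECTIN2 -0.49 with the offsets, all still called.

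Of the 11 proteasome genes 5 rose and 3 fell in U87. The 3 that fell were the immunoproteasome catalytic subunits PSMB8 (-0.41, adjusted p = 0.0407), PSMB9 (-0.78, adjusted p = 0.0119) and PSMB10 (-1.81 ± 0.32, adjusted p = 0.000419), which replace constitutive subunits after interferon. Those that rose were the constitutive PSMB6 and PSMB7, the assembly factor POMP and the activators PSME1 (0.80 ± 0.09) and PSME4 (1.03 ± 0.07). The constitutive PSMB5 (0.22, adjusted p = 0.476) and the activators PSME2 (0.33, adjusted p = 0.0554) and PSME3 (-0.14, adjusted p = 0.744) were not called. Of these, PSMB6 was called in 7 of 23 alternatives and PSMB7 in 12, and POMP was not called with the offsets (adjusted p = 0.176). PSMB9 had 0.267 to 0.552 CPM in U251 controls and 14.6 to 18.2 in U87 controls, a log2 gap of -5.12. At so low a level in U251 it passed the filter on low counts through U87, so the direction of this gap was fixed in advance. With the GC and length offsets PSMB9 and PSMB10 were still called lower in U87 and PSMB8 was not (adjusted p = 1).

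Of the 15 genes of interferon and JAK-STAT signalling 8 rose in U87 and 3 fell, with a median log2 fold change of 0.58. The kinase JAK1 had 1.02 ± 0.09 (adjusted p = 2.02e-06) and the kinase TYK2 -1.45 ± 0.15 (adjusted p = 6.69e-06), and both were called under all 23 alternatives. With the GC and length offsets JAK1 had 0.81 and TYK2 -0.37, and of the list 6 were called higher and 3 lower, with a median of 0.19. STAT2, part of the type I interferon response factor, rose by 0.58 ± 0.12 (adjusted p = 0.00165). Of the 27 promoter-binding factors 7 rose and 10 fell in U87, with EP300 at 0.68 and USF2 at -1.33. With the offsets 10 were higher and 7 lower, EP300 had 0.84 and USF2 -0.40.

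Class II genes differed between the lines. All 10 tested class II genes, of 12 listed, were lower in U251 than in U87 controls, where 32.3% of all tested genes were lower. CD74, the class II invariant chain, had 0 counts in all 6 U251 libraries and 137.5 to 172 CPM in U87 controls. Such a gene passed the filter on low counts only through U87, so its direction between the lines was fixed in advance. The same limit applies to HLA-DPA1, HLA-DPB1, HLA-DQA1, HLA-DQB1, HLA-DRB1 and HLA-DRB5, whose log2 fold change in U251 was 0.0. The count of 10 is therefore a description of levels and cannot be read against the share of all tested genes. CIITA, the class II transactivator and a relative of NLRC5, was singled out after its values were seen: it had 0.552 to 1.07 CPM in U251 controls, 48.1 to 55.7 in U87 controls and 14.1 to 33.2 in U87 artesunate. CIITA fell in U87 by -1.12 ± 0.24 (adjusted p = 0.00201) beside NLRC5, a call that held under all 23 alternatives. Of the class II genes 3 fell in U87, CD74 (-0.65), HLA-DMB (-0.95) and HLA-DQB1 (-1.26), and none rose. With the offsets 4 were called lower and 1 higher, HLA-DRB1 (0.59, adjusted p = 0.00018), and CD74 had 0.24 and was not called (adjusted p = 0.417).

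The neighbourhood on chromosome 6 was read through 19 tested genes beside the class I region that have no class I role. Of these 13 fell and 1 rose in U87, with a median log2 fold change of -0.90. Of all tested genes 29.2% were called lower and 29.2% higher there. TUBB, a tubulin, fell by -1.57 ± 0.07 in U87 and by -0.34 ± 0.07 in U251. The 1 that rose was IER3 (0.48, adjusted p = 0.032). With the offsets 8 of the 19 were called lower and 1 higher, with a median of -0.11.

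The gene most like each member over the 12 libraries was sought among 9613 protein-coding genes by the root mean square difference of centred log2 CPM. For HLA-B it was ITGB3, an integrin subunit on chromosome 17 (0.21), which had means of 13.6 and 21.0 CPM in the U251 groups and 238 and 309 in the U87 groups. For NLRC5 it was ADAMTS7 (0.14), with means of 7.32 and 7.56 CPM in U251 and 25.8 and 8.91 in U87. HLA-E was matched by GSTP1 (0.06), TAP1 by TEP1 (0.09), HLA-F by XPNPEP1 (0.09), TAP2 by TBC1D13 (0.10), TAPBP by OPA3 (0.10) and HLA-C by SHMT2 (0.26). B2M had no close match, its nearest being ERCC5 at 0.39. The closest pair within the members was HLA-F and TAP2 at 0.21, wider than the nearest outside gene of either, given as a description only.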

How the data were processed

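The members, the lists of other pathway genes and the tests were chosen with earlier results of these data known. Per the labels and the submitters' processing notes, the authors used fastp for read cleaning, HISAT2 2.1.0 for alignment (GRCh38), StringTie 1.3.3b for quantification and edgeR 3.30.3. The deposited table holds whole-number counts per gene, not normalized per the file headers; how they were made and their strandedness are not given in the sources used here. It also holds the authors' FPKM. Per the labels TMM normalization came before FPKM, but in all 8695 genes with at least 100 counts in every library CPM over FPKM was constant within 1%, so FPKM follows the library total.

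Counts were tested in R 4.3.3 with edgeR 4.0.16 (filterByExpr with minimum count 10 and minimum total 15, TMM factors, quasi-likelihood, 1 mean per group over 12 libraries, common biological coefficient of variation 0.183), adjusted by Benjamini-Hochberg over 17150 genes and called under 0.05. Standard errors were derived from each fold change and its F statistic. CPM use library totals. Alternatives were RLE factors, no TMM, DESeq2 1.42.0, no filter, 6 libraries, a replicate block, splines (5 degrees of freedom each) for GC content and length of the longest GENCODE transcript (99.6% of tested genes), limma 3.58.1 on log2(FPKM + 1) and log2(FPKM + 0.1), and leaving out each library. Fits were tested on simulated data. By rule all members and the nearest gene to each were named, and the gene with the smallest p per list, direction and line and genes of lists of up to 12 could be named. Lists held class I relatives, loading, proteasome, peptidases, transcription factors, interferon signalling, removal, ligands, class II, chromosome 6 neighbours and cell type markers; 2 genes of these lists are not reported here.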

Additional observations from a re-analysis of the deposited data

Results flagged for a closer look

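The artesunate effect differed between the lines by a test of the difference itself in 3 members. On the log2 scale, U251 minus U87, it was 0.75 for TAP2, 1.13 for TAPBP and 1.36 for NLRC5, each from a fall in U87 and a value that was not called in U251. With offsets for GC content and length TAP2 alone of these 3 was called. Dose and line cannot be told apart in these differences.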

How the results depend on the processing

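Over the alternatives, 45 of 1026 member fold changes turned sign, most of them near 0. In U251 these were HLA-F -0.0057 and TAP2 -0.0084 with total counts; NLRC5 0.0163 without the filter; HLA-B -0.0562, HLA-F -0.13, TAP2 -0.0174 and TAPBP -0.0296 with GC and length offsets, and -0.0558, -0.12, -0.0187 and -0.0251 with the replicate block and offsets; HLA-F -0.0019 and TAP2 -0.0063 with log2(FPKM + 1), with and without the filter, and -0.0058 and -0.0077 with log2(FPKM + 0.1). Leaving out 1 library gave ranges of -0.0547 to 0.12 for HLA-F, -0.0491 to 0.12 for TAP2 and -0.10 to 0.0579 for NLRC5 in U251, and of -0.49 to 0.0333 for HLA-C and -0.57 to 0.0344 for NLRC5 (both highest without U87 artesunate replicate 2) between the artesunate groups. In U87 the offsets gave HLA-C 0.66, HLA-E 0.45, HLA-F 0.36 and TAP1 0.69, and with the block 0.68, 0.45, 0.35 and 0.69. In the difference of effects they gave HLA-C -0.55, HLA-E -0.38, HLA-F -0.48 and TAP1 -0.56, and with the block -0.55, -0.38, -0.47 and -0.56. Between controls HLA-F was 0.0071 with offsets and 0.0116 with the block too. The cause was not tested.

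Genes called in U251 (1431) were 2328 with DESeq2, 864 without the filter, 2892 with 6 libraries, 2154 with log2(FPKM + 1) and 652 to 2582 without 1 library; in the difference (8478) they were 5155 with offsets and 4793 with block and offsets. Members called in the difference (3) were 5 with log2(FPKM + 1) and 3 to 5 without 1 library, 5 of them without U87 artesunate replicate 2. Deviations from the group mean correlated at -0.009 to 0.053 between libraries of the same replicate number and at -0.085 to 0.044 between those of different numbers. These values cannot settle whether replicate numbers pair the samples. The replicate block alone called 0, 5, 3, 7 and 4 members, losing TAP1 between the artesunate groups (adjusted p = 0.0741). HLA-B between the lines, TAPBP between the lines, and TAP2 and NLRC5 in U87 and between controls were called under all 23 settings. The smallest detectable change was not measured.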
